A study of Homo sapiens with 6 samples.

Results

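Syntaxin binding proteins and the SNAREs of regulated secretion were described in 6 monoclonal K562 lines. The 9 genes were STXBP2, STXBP3, STXBP4, STXBP5, STXBP5L, STXBP6, SNAP23, VAMP8 and STX11, each measured by 1 probe set of its own, out of 18417 genes tested. They were taken by name from the array annotation, but the family was picked from these same arrays with the differences between the groups already known. The differences of its members are therefore given as a description, with no p, and where a member is said to be called by the fit over all genes this too describes the values that chose it.

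K562 is a human line from a chronic myeloid leukemia with erythroid and megakaryocytic potential. Of the 6 lines, 3 carried the empty vector pEF1α (vector lines) and 3 carried pEF1α-Pu.2, in which the EF1α promoter drives the murine Pu.2 cDNA, an amino-terminally truncated form of PU.1. All 6 had been electroporated and selected in puromycin, and each line was 1 clone. Each clone had a single array, the Affymetrix Human Gene 1.0 ST, so n counts clones, and the spread between clones and that from RNA handling cannot be told apart. The sample labels give Schneider's medium, an insect cell medium, for these lines, whereas the methods describe RPMI for K562.

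A vesicle fuses with its target membrane when SNARE proteins on both sides zip into a bundle of 4 helices. A VAMP on the vesicle pairs with a syntaxin and a SNAP25-type protein on the target membrane, and proteins of the Sec1/Munc18 family hold the syntaxin and steer the assembly. Tomosyns carry a VAMP-like tail that can occupy the same partners and can restrain fusion, though not in every cell type. Platelets, mast cells and cytotoxic lymphocytes release their granules through sets of proteins that draw on VAMP8, SNAP23, STX11 and STXBP2, not all of them in each cell type. Inherited loss of STX11 or STXBP2 causes familial hemophagocytic lymphohistiocytosis.

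Array medians ranged from 5.30 to 5.42 on the log2 scale. All 6 measured markers of K562 and the erythroid lineage lay above the median in all 6 lines, with HBE1 at 12.28 to 13.06 and TFRC at 10.91 to 11.47. Of the 5 measured megakaryocyte and platelet markers, 4 lay under the array median in every line. In the vector lines the summed erythroid marker level was 13.15 to 13.59 and in the pEF1α-Pu.2 lines 13.94 to 13.98 (log2 of the sum). The sum weighs the brightest markers most, the globins HBE1 and HBZ among them. GATA1, TAL1, TFRC and EPOR had log2 differences of 0.10 to 0.25, and TAL1, TFRC and EPOR overlapped between the groups. Of the 6 markers 1, HBZ, was called higher, where 0.147% of all tested genes were. The summed T cell marker level was 7.18 to 7.61 and 6.80 to 7.07. There CD3D alone did not overlap (6.08 to 6.98 and 5.12 to 5.58), 0 of 4 markers were called, and CD3E and CD2 lay under the array median in every line. What part these shifts have in the values of the family was not tested. Human SPI1 read 6.05 to 6.32 in the vector lines and 6.41 to 6.59 in the others, and whether its probes read murine Pu.2 was not analysed here. Vector line 3 stood apart, with correlations across genes of 0.973 and 0.981 with vector lines 1 and 2 (0.988 with each other), against 0.982, 0.982 and 0.979 with pEF1α-Pu.2 lines 1, 2 and 3, so values without it are given where they matter.

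STXBP5, which encodes tomosyn-1, was the member with the largest difference and was lower in all pEF1α-Pu.2 lines. Its log2 value was 9.74, 9.94 and 9.16 in vector lines 1, 2 and 3, against 7.77, 7.52 and 8.06 in pEF1α-Pu.2 lines 1, 2 and 3. The lowest vector line thus lay 1.09 above the highest pEF1α-Pu.2 line on the log2 scale, more than the range within either group (0.79 and 0.55). The means were 9.61 ± 0.41 and 7.78 ± 0.27 (SD, n = 3 lines each), a log2 difference of -1.83 (standard error 0.22), or 3.55-fold lower. It was the 59th largest difference in either direction among the 18417 genes and the 38th largest on the lower side. Vector line 3 was the vector line nearest to the other group, and without it the log2 difference was -2.06. In RNA of whole cultures, fewer cells with a transcript and less of it per cell cannot be told apart.

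STXBP5L, the gene of the close relative tomosyn-2, read under the array median in all 6 lines. Its log2 value was 3.58, 3.53 and 3.60 in the vector lines, against 3.41, 3.75 and 3.34 in the pEF1α-Pu.2 lines. The groups overlapped, with a log2 difference of -0.07 (standard error 0.14). With a signal this dim, a lower level could hardly have been seen.

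**Figure D1:**
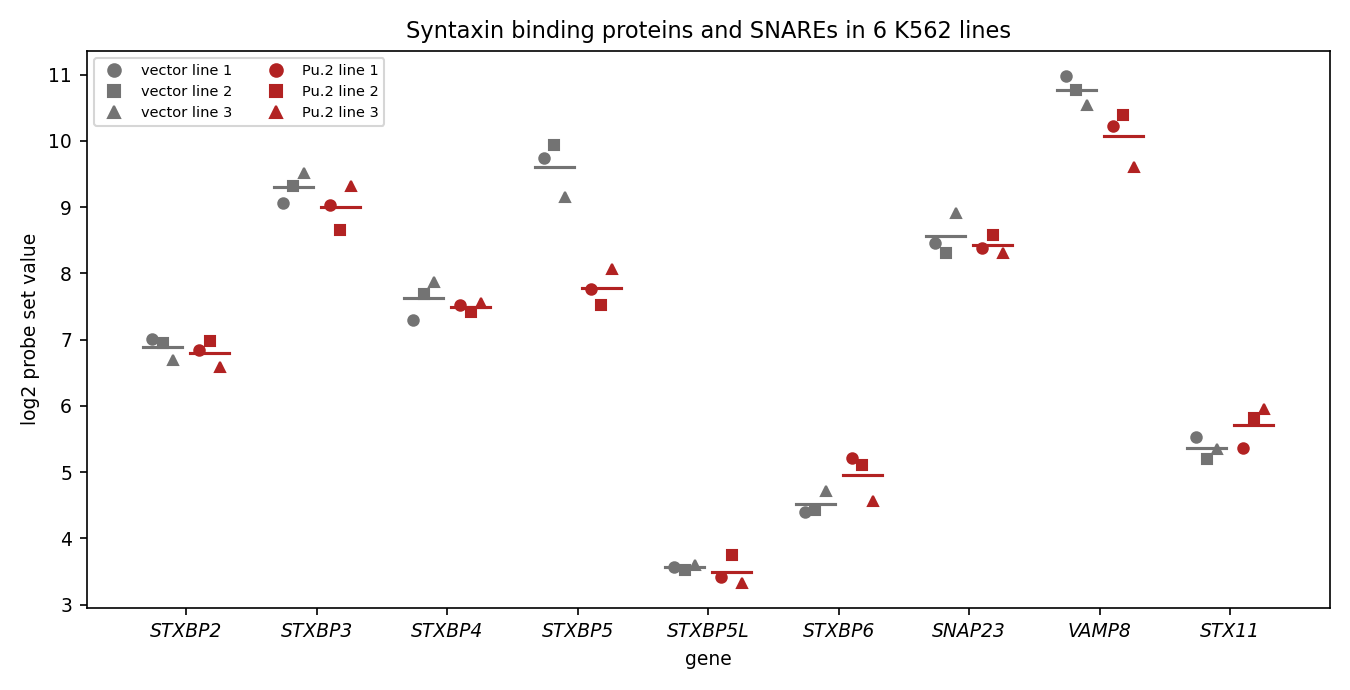
Probe set values on the log2 scale (vertical axis) of the 9 genes in each of 6 K562 lines (gray, empty vector, and red, pEF1α-Pu.2). Symbols are single lines and bars are means of 3 lines. STXBP5 shows the widest separation, at 9.16 to 9.94 and 7.52 to 8.06, and VAMP8 a narrow one, whereas the symbols of the other 7 genes overlap.

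The bases before the STXBP5 start site are shown because they hold the letters of the PU.1 consensus used as a gel shift probe in the study, GAGGAA, and those of an erythroid GATA element, AGATAA. They are the 250 bases before the start in RefSeq, on the plus strand of GRCh38.p14 at chr6:147204167-147204416, written 5′ to 3′ with both matches in capitals. AGATAA lies on the opposite strand and so appears as its reverse complement.

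STXBP5: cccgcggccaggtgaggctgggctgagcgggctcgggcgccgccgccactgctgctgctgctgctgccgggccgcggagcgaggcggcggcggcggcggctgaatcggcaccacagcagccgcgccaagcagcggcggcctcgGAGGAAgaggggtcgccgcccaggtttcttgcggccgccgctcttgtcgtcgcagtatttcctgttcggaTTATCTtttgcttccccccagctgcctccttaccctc

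GAGGAA begins 107 bases before the start. The same letters are in 27.9% of the 35116 RefSeq windows of 300 bases (250 before and 50 after a start, both strands searched), and AGATAA is in 10.3% of them. The STXBP5 window is 71.0% G and C, above the median window at 58.7%, and has 36 CpG pairs where the median window has 14. A match of letters is no evidence of binding.

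The 2 Sec1/Munc18 members differed little between the groups. STXBP2, which encodes Munc18-2, the partner of syntaxin 11 in granule release, read 7.01, 6.95 and 6.70 in the vector lines, against 6.85, 6.98 and 6.59 in the pEF1α-Pu.2 lines. Line 3 was the lowest of its group in both, and the groups overlapped over most of their range. The log2 difference was -0.08 (standard error 0.15, 95% interval -0.42 to 0.26). STXBP3, which encodes Munc18-3, the partner of syntaxin 4 in glucose transporter delivery, read 9.06, 9.31 and 9.51 in the vector lines, against 9.03, 8.65 and 9.32 in the pEF1α-Pu.2 lines. Only pEF1α-Pu.2 lines 1 and 2 lay under the lowest vector line. The log2 difference was -0.30 (standard error 0.19, 95% interval -0.74 to 0.14), and it ranged from -0.46 to -0.12 when each line was left out in turn.

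The remaining 2 binding proteins differed in sign, and in both the groups overlapped. STXBP4, which encodes Synip, a syntaxin 4 binding protein, read 7.30, 7.69 and 7.87 in the vector lines, against 7.52, 7.41 and 7.55 in the pEF1α-Pu.2 lines. All pEF1α-Pu.2 values lay inside the vector range, with a log2 difference of -0.13 (standard error 0.16) that was 0.00 without vector line 3. STXBP6, which encodes amisyn, a small protein with a VAMP-like coil, read 4.40, 4.43 and 4.72 in the vector lines, against 5.21, 5.12 and 4.56 in the pEF1α-Pu.2 lines. It lay under the array median in all 6 lines, and pEF1α-Pu.2 line 3 lay among the vector lines while lines 1 and 2 lay above them. The log2 difference was 0.45 (standard error 0.19). With each line left out in turn it ranged from 0.32 without pEF1α-Pu.2 line 1 to 0.65 without pEF1α-Pu.2 line 3. It was 0.55 without vector line 3.

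Among the SNAREs VAMP8 was lower in all pEF1α-Pu.2 lines, by less than STXBP5. VAMP8, also called endobrevin, is the vesicle SNARE of platelet and mast cell granules and of late endosomes. It read 10.98, 10.77 and 10.54 in vector lines 1, 2 and 3, against 10.22, 10.38 and 9.61 in pEF1α-Pu.2 lines 1, 2 and 3. The groups were 0.16 apart on the log2 scale, less than the range within either one (0.44 and 0.77), and pEF1α-Pu.2 line 3 was the lowest line. The means were 10.76 ± 0.22 and 10.07 ± 0.41 (SD, n = 3 lines each), a log2 difference of -0.69 (standard error 0.21), or 1.61-fold lower. Leaving out pEF1α-Pu.2 line 3 gave -0.46, and leaving out vector line 3 gave -0.80.

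The 2 SNAREs of the target membrane overlapped between the groups. SNAP23, the SNAP25-type SNARE of non-neuronal cells, read 8.46, 8.30 and 8.91 in the vector lines, against 8.38, 8.58 and 8.30 in the pEF1α-Pu.2 lines. Its log2 difference of -0.14 (standard error 0.17) turned to 0.04 without vector line 3, the highest line. STX11, an unusual syntaxin without a transmembrane helix, read 5.53, 5.20 and 5.36 in the vector lines, against 5.36, 5.81 and 5.95 in the pEF1α-Pu.2 lines. There pEF1α-Pu.2 line 1 lay within the vector range and lines 2 and 3 above it, with a log2 difference of 0.34 (standard error 0.17, 95% interval -0.05 to 0.74). STX11 was thus not lower together with VAMP8, with which it acts in granule release.

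Of the 9 members, 1 was called lower at an adjusted p under 0.05 from limma over all genes, STXBP5, where 0.223% of all tested genes were. None was called higher, where 0.147% of all tested genes were. The groups did not overlap in 2 of the 9, where they did not in 13.8% of all tested genes. Since the family was picked with these differences known, nothing is read from the counts. The median log2 difference of the members was -0.13, against 0.02 over all genes, and 2 of the 9 lay above 0. STXBP5 and VAMP8 lay under the 5th percentile of all genes (-0.45), and STXBP6 and STX11 lay above the 95th (0.33). STXBP5 was called without vector line 3 and not called without any of the other 5 lines.

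**Figure D2:**
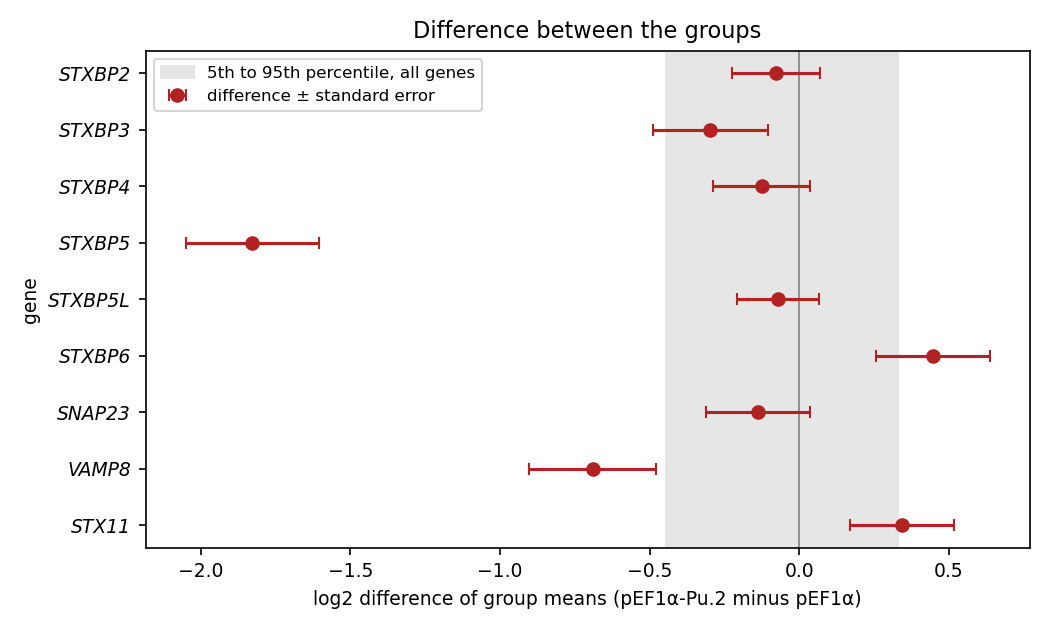
Log2 difference of group means, pEF1α-Pu.2 minus pEF1α (horizontal axis), of the 9 genes (vertical axis), with bars of 1 standard error from limma and 3 lines per group. The gray band runs from the 5th to the 95th percentile of all 18417 genes (-0.45 to 0.33). STXBP5 at -1.83 lies far outside it and VAMP8 at -0.69 outside it, STXBP6 and STX11 lie just past its upper edge, and the other 5 genes lie inside.

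Promoter windows were found in RefSeq for 8 members, 11 windows in all, of which STXBP6 has 3 and STXBP2 has 2. GAGGAA was in the windows of 4 of these, STXBP5, STXBP6, VAMP8 and STX11, and the letters AGGAAGT, an ETS element that shares AGGAA with GAGGAA and can overlap it, were in those of STXBP2 and VAMP8. By window, GAGGAA was in 5 of 11 and AGGAAGT in 2 of 11, against 27.9% and 8.24% of all windows. With so few windows of a picked family, nothing is read from these counts. Of the 4 genes with GAGGAA, STXBP5 and VAMP8 lay lower in the pEF1α-Pu.2 lines, and STXBP6 and STX11 had higher means with overlap of the groups. The stretches that hold the letters in the genes whose groups did not overlap are shown with STXBP2 for comparison, on the plus strand of GRCh38.p14, the match in capitals. VAMP8 has 1 match before and 1 just after its start.

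STXBP5, chr6:147204300-147204325: ggcggcctcgGAGGAAgaggggtcgc
VAMP8, chr2:85577557-85577583: tggagcaagcAGGAAGTgaactgaggg
VAMP8, chr2:85577583-85577608: gccaccctggGAGGAAgccgactagg
STXBP2, chr19:7636869-7636895: cacgcaagccAGGAAGTgtgtgtctga

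The matches begin 107 bases before the STXBP5 start, 19 bases before and at base 8 after the VAMP8 start, and 231 bases before 1 of the 2 STXBP2 starts. STXBP2 holds AGGAAGT on each strand of that window and no GAGGAA in either window, and AGGAAGT is absent from the STXBP5 window. AGATAA was in the windows of STXBP5 and STXBP6, and the KLF element core CACCC was in those of 7 of the 8 genes, all but STXBP5. By window these were 2 and 9 of 11, against 10.3% and 59.9% of all windows.

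The genes next to the members on the chromosome were compared in the same way. For each member the nearest protein-coding gene with its own probe set on either side was taken, 18 genes in all, and none was called by limma. Before adjustment, a p under 0.05 was reached by 1 on the higher and 1 on the lower side, where 705 and 1050 of all 18417 genes reached it, a like share. The groups did not overlap in 3 of the 18 (16.7%), where they did not in 13.8% of all genes. Beside STXBP5, ADGB read 3.07, 3.10 and 3.21 in the vector lines, against 2.91, 2.86 and 3.01 in the pEF1α-Pu.2 lines, a log2 difference of -0.20 (adjusted p = 0.66 from limma). On its other side SAMD5 had a log2 difference of -0.02 (adjusted p = 0.98), and both read under the array median. The groups did not overlap for ADGB. With signals this dim, a wide fall of either could hardly have been seen. Beside VAMP8, its relative VAMP5 read 5.95 to 6.44 in the vector lines and 5.94 to 6.29 in the others, a log2 difference of -0.04 (adjusted p = 0.97). The genes past the unadjusted threshold, named after their values were seen, were LRRC57 beside SNAP23 (log2 difference 0.42, adjusted p = 0.37) and the splicing factor gene SF3B5 beside STX11 (-0.48, adjusted p = 0.40). The widest difference of the 18 was that of UTRN on the other side of STX11 (-0.83, adjusted p = 0.67). On the other side of VAMP8, GGCX had a log2 difference of -0.20 with overlap of the groups. UTRN, VAMP5 and GGCX were also named after their values were seen. The family was picked with its differences known, so a narrower difference beside STXBP5 or VAMP8 tells nothing about the members.

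The genes closest to STXBP5 in pattern were MPPE1, CAVIN2, KIF3B, TRIM38 and SLC2A3, with a Pearson r of 0.994, 0.990, 0.989, 0.989 and 0.986 over the 6 lines. They were taken from 1730 genes whose values spanned more than 1 on the log2 scale. With 6 lines in 2 groups such values are a description. In these genes vector line 2 was the highest and vector line 3 the lowest of the vector lines, as in STXBP5, and every pEF1α-Pu.2 line lay under every vector line. CAVIN2, a coat protein of caveolae, read 6.73, 6.97 and 6.44 in the vector lines, against 5.28, 5.08 and 5.24 in the pEF1α-Pu.2 lines. KIF3B, a motor subunit of kinesin-2, read 7.39, 7.63 and 7.19 and then 6.07, 5.59 and 6.16. SLC2A3, the glucose transporter GLUT3, had the widest difference of the 5, -1.84, close to that of STXBP5, and MPPE1, an enzyme that trims GPI anchors, the narrowest, -0.96. TRIM38, a TRIM-family ubiquitin ligase, had one of -1.64.

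**Figure D3:**
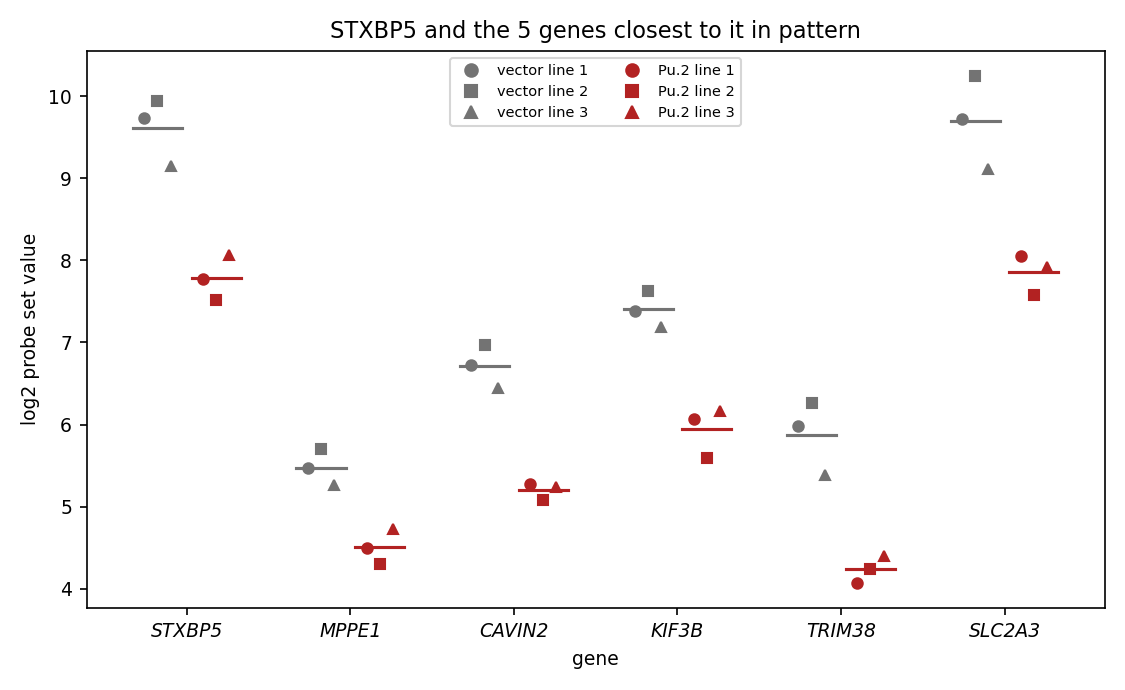
Log2 probe set value (vertical axis) of STXBP5 and the 5 genes with the highest Pearson r to it in each of 6 K562 lines (gray, empty vector, and red, pEF1α-Pu.2). Symbols are single lines and bars are means of 3 lines. In each gene vector line 2 is the highest line and no red symbol reaches a gray one.

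The wider secretory route was described with 124 genes listed by role, of which 120 were measured and had a probe set of their own. By limma over all genes 0 were called higher and 0 lower. Before adjustment, a p under 0.05 was reached by 4 on the higher side and 13 on the lower side, and by 705 and 1050 of all 18417 genes. The lower side thus held a larger share of the list than of all genes, and the higher side a like share. The median log2 difference was -0.02, against 0.02 over all genes, and the groups did not overlap in 21 genes (17.5%, against 13.8% of all genes). Arrays weighted by limma gave 2 genes called higher and 11 lower, where it called 514 and 835 of all 18417 genes, a fit in which vector line 2 had a weight of 5.52 and the other lines weights of 0.40 to 1.34. There too the lower side held a larger share of the list than of all genes. Without vector line 3, 2 of the 120, RAB27A and SYT10, were called lower, where 273 of all 18417 genes were, a like share. The list was chosen with earlier results of these data known, so nothing particular to it is read from these counts.

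RAB27A, a Rab that docks secretory granules, was not in the naming rule and is given because it was called without vector line 3. It read 9.01, 8.92 and 8.80 in the vector lines, against 8.25, 8.23 and 8.04 in the pEF1α-Pu.2 lines. The groups did not overlap, and the log2 difference was -0.74 (standard error 0.12, adjusted p = 0.062 from limma, and 0.022 without vector line 3). Over the other alternatives its adjusted p ran from 0.0050 to 0.28. Its relative RAB27B, of platelets and other secretory cells, read 6.14 in vector line 2 and 3.40 to 3.88 in the other 5 lines, so its log2 difference of -0.98 (adjusted p = 0.66) rested on 1 line. RAB32, a Rab of lysosome-related organelles, read 7.32, 7.25 and 6.02 in the vector lines, against 6.59, 5.37 and 5.32 in the pEF1α-Pu.2 lines, with a log2 difference of -1.10 (adjusted p = 0.45) and overlap of the groups.

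The synaptotagmins are a family that includes calcium sensors of fusion. In this family SYT10 read 6.67, 7.98 and 5.18 in the vector lines, against 4.77, 5.09 and 5.32 in the pEF1α-Pu.2 lines. Vector line 3 lay among the pEF1α-Pu.2 lines. The log2 difference was -1.55 (adjusted p = 0.43 from limma), and leaving out vector line 3 gave -2.27 (adjusted p = 0.0091). SYT11 had the next largest difference of the 19 measured, 0.23 (adjusted p = 0.61), and read under the array median in all 6 lines. In the exocyst, which tethers vesicles to the plasma membrane, EXOC6B and EXOC4 had log2 differences of -0.79 and -0.38 (adjusted p = 0.31 and 0.46). EXOC6B read above the array median in only 1 of the 6 lines, with overlap of the groups, and 0 of 9 subunits were called.

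Of 13 other syntaxins, 0 were called, and the groups did not overlap in 4, 2 of them higher and 2 lower (13.8% of all genes did not). STX7, a late endosomal syntaxin that acts with VAMP8, read 8.41, 8.64 and 8.84 in the vector lines, against 9.27, 9.24 and 8.97 in the pEF1α-Pu.2 lines. Its log2 difference was 0.53 (adjusted p = 0.26 from limma), opposite in sign to that of VAMP8. STX19 had one of 0.45 (adjusted p = 0.43) and read above the array median in only 2 of the 6 lines. The 2 on the lower side, named after their values were seen, were STX2 at -0.35 and STX18 at -0.19 (adjusted p = 0.52 and 0.69). Of the 10 other VAMPs and R-SNAREs, VAMP7, the lysosomal VAMP, had a log2 difference of -0.43 (adjusted p = 0.24) without overlap, and VAMP2 had one of 0.46 (adjusted p = 0.63) with overlap. In the 11 SNAP25-type and Golgi SNAREs the groups did not overlap in 3, 1 of them higher and 2 lower (13.8% of all genes did not). BNIP1 and VTI1A lay lower, by log2 differences of -0.54 and -0.43 (adjusted p = 0.25 and 0.39). A second VTI1A probe set gave -0.24. SNAP29, named after its values were seen, lay higher by 0.26 (adjusted p = 0.65).

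None of the regulators nearest to the syntaxin binding proteins was called by limma over all genes. Among 5 measured Sec1/Munc18 relatives VPS33B, which platelets need to form α-granules, read 7.25, 7.41 and 7.35 in the vector lines, against 6.93, 6.76 and 6.81 in the pEF1α-Pu.2 lines. Its log2 difference was -0.50 (standard error 0.11, adjusted p = 0.17 from limma) without overlap, and SCFD2 had one of -0.21 (adjusted p = 0.75). LLGL1 and LLGL2, which share the fold of the tomosyns, had 0.13 and 0.04 (adjusted p = 0.83 and 0.96). In the group of Munc13 and complexins, which prime and clamp vesicles, CPLX3 had 0.35 and UNC13A -0.34 (adjusted p = 0.33 and 0.70). Both of these genes read under the array median in every line. A second CPLX3 probe set gave a log2 difference of 0.01. NSF and its adaptors, which take spent SNAREs apart, ranged from -0.13 for NAPG to 0.22 for NAPA (adjusted p = 0.86 and 0.80). Of 13 genes of granule biogenesis, HPS4 and AP3B1 had the largest differences, -0.42 and -0.40 (adjusted p = 0.26 and 0.34), both without overlap.

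**Figure D4:**
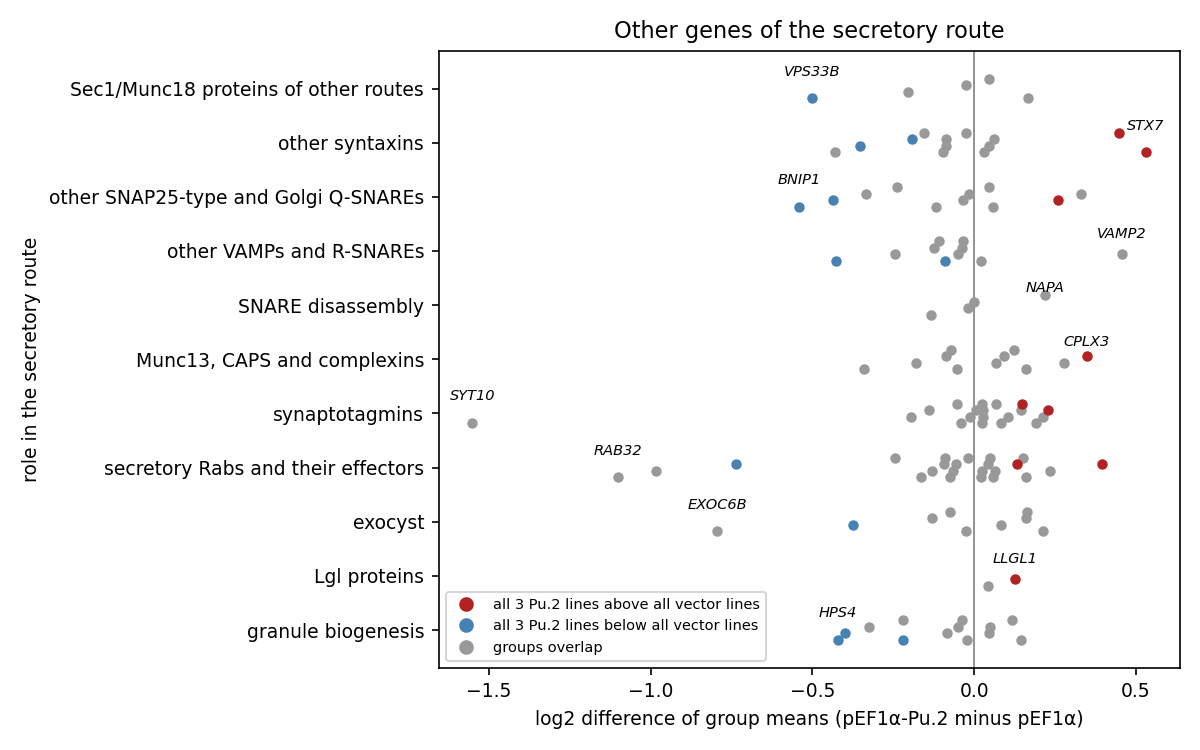
Log2 difference of group means, pEF1α-Pu.2 minus pEF1α (horizontal axis), of 120 other genes of the secretory route, 1 point per gene, in rows by role (vertical axis, spread within a row only to keep points apart). Red and blue points are genes whose 3 pEF1α-Pu.2 lines all lie above or all lie below the 3 vector lines, gray points overlap, and the widest difference of each row is named. SYT10 at -1.55 and RAB32 at -1.10 are gray, and RAB27A at -0.74 is the lowest blue point.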

How the data were processed

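Total RNA of 3 vector and 3 pEF1α-Pu.2 lines was hybridized to 1 array each. The authors deposited 1 log2 value for each probe set and array, made in Affymetrix Expression Console. Its algorithm and version, and the scan dates, were not given in the sources used here. Precision is limited by the number of arrays.

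Of 33297 probe sets, 19460 had 1 gene symbol, 1754 several and 12083 none here. Symbols were checked by gene ID in RefSeq GRCh38.p14 (19429 found). The brightest probe set stood for a gene. Groups were compared over 18417 genes with limma 3.58.1 (R 4.3.3, lmFit and eBayes) and Benjamini-Hochberg adjustment, called at an adjusted p under 0.05. The fit was tested on simulated data. With 3 lines a group the smallest p of an exact permutation test is 0.1.

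The members and gene lists were chosen with earlier results of these data known. Named genes were all members, listed or neighboring genes past the test, the 2 widest differences in each role, neighbors of the member with the widest difference, its 5 nearest genes by Pearson r, and SPI1. Others are stated as such.

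Alternatives were a replicate block, each line left out, a filter on dim genes, quantile, median and cyclic loess scaling, eBayes with trend and robust fit, array weights, other uses of probe sets, medians and linear means.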

Additional observations from a re-analysis of the deposited data

How the results depend on the processing

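The log2 difference of STXBP5 ran from -2.14 to -1.66 over 17 alternatives and was -1.83 with the replicate block. All 151 recomputed member values moved by less than 1 SD between lines. For many of them this was fixed in advance. Leaving out 1 of 3 lines cannot move a difference that far. The replicate block, the filter on dim genes, the trend and robust fit and the other uses of probe sets leave member differences unchanged. STXBP3, STXBP5, STXBP6, VAMP8 and STX11 kept their sign throughout, and STXBP2, STXBP4, STXBP5L and SNAP23, with differences near 0, did not. Leaving out 1 line gave 0 to 1 members called (1 without vector line 3), where fewer lines enter the fit. It gave 0 to 2 listed secretory genes called lower, 2 of them without vector line 3. Array weights called 2 listed genes higher and 11 lower and 1 neighbor gene, LRRC57, where they called 514 higher and 835 lower over all genes. The cause was not tested. With 1 line left out, LLGL2 ranged from -0.057 to 0.15, below 0 without vector line 3, and SAMD5 from -0.047 to 0.0057, above 0 without line 2 of either group, and VAMP5 from -0.16 to 0.082, above 0 without line 1 of either group. Without vector line 3, 159 genes were called higher and 273 lower over all genes, and without any other line 8 to 16 and 11 to 27, against 27 and 41 with all lines. The shared replicate numbers did not pair the lines. Deviations of same-numbered lines correlated at -0.15, -0.15 and -0.04, 0 of 6 lines correlated best with its own number, and the replicate block gave 23 higher and 41 lower genes.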
